A study of Mus musculus with 12 samples.

Results

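Kinesins, the motor proteins that walk along microtubules, were followed in single cells of the mouse 2-cell embryo. Members were the array probes that carry no control sequence and whose gene name in the scanner files begins with Kif or Kifc and a number. This gave 72 probes for 35 genes, of 22407 named genes on the array. They were divided by known role into 12 mitotic kinesins, 15 transport kinesins and 8 others. The samples were 12 single blastomeres, the cells of 6 embryos of CF-1 mice taken at 36 h post coitus and pulled apart. Experiment 1 held embryos D, I and L and experiment 2 held embryos D, G and H, with the sister cells of each embryo numbered 1 and 2. All embryos came from natural matings, were flushed from the oviduct and carried no genetic change or treatment named in the labels. RNA of each blastomere was amplified in 2 rounds, so a level is that of amplified RNA from 1 cell, and what the cell numbers stand for is not given in the labels.

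Mitotic kinesins build the spindle, move chromosomes and complete cell division. Transport kinesins carry vesicles, organelles and messenger ribonucleoprotein along the cytoskeleton, and some of them work inside cilia. At the 2-cell stage maternal transcripts are being cleared and the embryo's own genome has begun to be transcribed. Many transcripts of cell division are stored in the egg, so a level here can be of maternal or embryonic origin.

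Array and cell identity were checked first. Between 22.1% and 78.8% of the non-control spots of an array were well above background, the lowest share in cell 1 of embryo D of experiment 1 and the highest in cell 1 of embryo D of experiment 2. The summed level of oocyte and 2-cell embryo markers was high in all cells. The log2 of the summed scaled signal of 15 genes lay between 5.69 and 6.55 in experiment 1. In experiment 2 it lay between 5.97 and 6.48. A sum does not show each gene, and not all of these markers were strong. By the brightest probe, Nlrp5 was well above background on 4 arrays and Mos on 5. Markers of other cells were summed in the same way, and those of stroma and oviduct stood higher in experiment 1. The summed level of 10 stroma and macrophage genes lay between 3.84 and 6.15 in experiment 1 and between -0.67 and 0.19 in experiment 2, and that of 8 oviduct epithelium genes between 2.88 and 5.73 and between -1.11 and 0.90. That of 10 cumulus and granulosa genes lay between -0.26 and 0.92 in experiment 1, where Foxl2, Fshr, Has2, Inhba and Tnfaip6 were not well above background in any cell, and between 0.56 and 1.94 in experiment 2. That of 2 blood genes lay between -3.12 and 0.09 in experiment 1 and between -3.12 and -2.56 in experiment 2. A gene under the common floor, described below, still adds the floor to its sum, so each sum has a lowest possible value. The lowest stroma and oviduct sums of experiment 2 lay near that value, and the lowest blood sum of each experiment lay at it. Such sums do not show that the markers were present.

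Levels are given as log2 scaled signal: the processed signal of a probe divided by the 75th percentile of its array, so that 0 is that percentile. Signals under a common floor of -4.12 were set to it, and levels of different probes cannot be ranked against each other. Of the 72 kinesin probes, 39 were well above background on at least 6 of the 12 arrays and could be tested, for 26 of the 35 genes. By its brightest probe, a kinesin gene was well above background in all 12 cells in 11 cases. Of these, 7 were mitotic (Kif2a, Kif2c, Kif18a, Kif20a, Kif22, Kif23 and Kifc1) and 4 were transport motors (Kif3c, Kif5b, Kif5c and Kifc2). Of all 22407 named genes, 4754 were well above background in all 12 cells by the brightest probe and 11724 could be tested. The transport share, 4 of 15, was thus near that of the array. Between 8 and 12 of the 12 mitotic genes were detected in a cell, between 4 and 14 of the 15 transport genes and between 2 and 8 of the 8 others. The fewest transport genes were seen in the cell with the lowest share of spots above background, and the most in the cell with the highest. The other 9 genes were well above background on fewer than 6 arrays by every probe. By the brightest probe these were Kif15, Kif2b, Kif12, Kif1a and Kif3a on 5 arrays each, Kif1c on 4, Kif3b on 3, and Kif7 and Kif13b on 1 each (Kif13b on 2 by its dimmer probe).

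**Figure D1:**
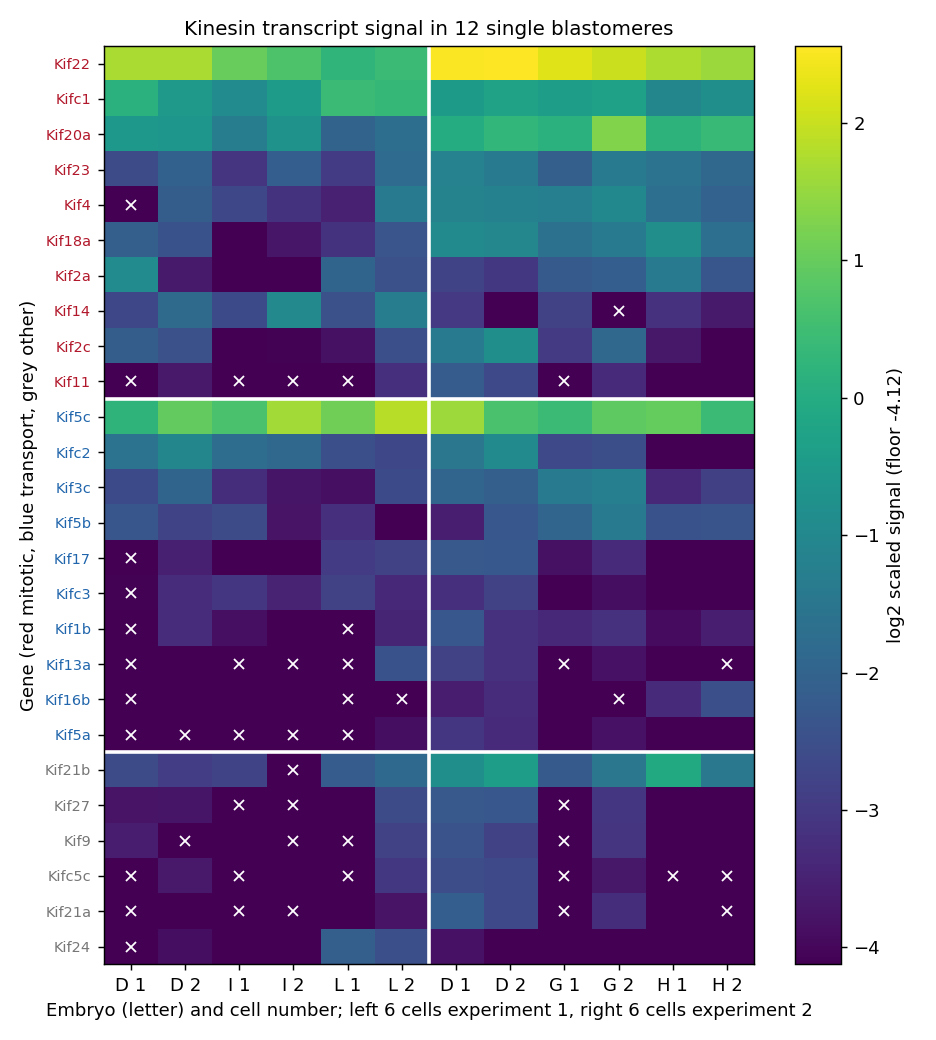
Log2 scaled signal (colour) of the 26 tested kinesin genes (rows, by the brightest probe of each) in the 12 cells (columns, embryo letter and cell number). White crosses mark probes not well above background; colours are to be compared along a row, and the upper block of mitotic genes has 10 rows, the transport block 10 and the lowest block 6.

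Probes of a gene did not always detect it alike. Kif3c, a neuronal motor subunit that pairs with Kif3a, was well above background on 12 arrays by probe A_51_P449507 and on 0 by probe A_52_P41759. The brighter probe also gave signal in the channel that held no embryo RNA in experiment 1, well above background on 6 of 6 arrays. There its Cy3 signal lay between 9.11 and 13.2, against 25.3 to 115 in the Cy5 channel that held the RNA. It was the only kinesin probe so marked, and 13 probes of the whole array were well above background in Cy3 on all of those arrays. Kif5b, the ubiquitous heavy chain of conventional kinesin, was seen on 12 arrays by one probe and on 3 by another, and Kif18a on 12 and on 1. The array names Kifc1, the minus-end directed spindle motor, but the accession of its probes belongs to Kifc5b in the gene table of assembly GRCm38.p6. These are near copies, so their signals cannot be assigned to 1 gene, and Kifc5c of the other group is close to them in sequence as well.

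Mitotic kinesins were higher in experiment 2 for 5 probes of 4 genes, Kif18a, Kif20a, Kif22 and Kif23, at a Benjamini-Hochberg adjusted p under 0.05 (limma with embryo as a random block). No kinesin probe was lower. These 5 are 12.8% of the 39 tested kinesin probes. Over all 16712 tested probes, 8.11% were called, 3.96% higher and 4.15% lower in experiment 2. No probe of a transport or other kinesin was called, although Kif21b, one of the others, was called as higher with quantile normalization, with normexp and with the deposited values.

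Kif20a, a motor of the central spindle needed for cytokinesis, had probe A_51_P133137 between -2.35 and -1.15 in the 6 cells of experiment 1, with a median of -1.46. In experiment 2 the same probe lay between -0.14 and 1.14, with a median of 0.12. The ranges did not overlap, and the difference was 1.84 ± 0.33 (SE) log2 units, or 3.58-fold (adjusted p = 0.00627 in limma). Its second probe, A_51_P133138, also separated the experiments, with all cells at or under -0.56 in experiment 1 and at or above 0.01 in experiment 2 (difference 1.54 ± 0.35, adjusted p = 0.0190 in limma).

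Kif18a, which damps chromosome oscillation at the ends of kinetochore microtubules, lay between the floor of -4.12 and -2.09 in experiment 1, with a median of -2.79. In experiment 2 it lay between -1.69 and -0.83, with a median of -1.20. No cell of experiment 1 reached the lowest of experiment 2, and the fitted difference was 1.73 ± 0.39 (SE) log2 units (adjusted p = 0.0178 in limma). Embryo I, whose cells were at -4.12 and -3.72, was the lowest in experiment 1.

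Kif22, a chromosome-bound motor that pushes chromosomes toward the spindle equator, lay between 0.24 and 1.72 in experiment 1. In experiment 2 it lay between 1.57 and 2.56. Its difference of 1.14 ± 0.31 (SE) log2 units, 2.21-fold, passed (adjusted p = 0.0403 in limma), although embryo D of experiment 1, at 1.72 and 1.71, overlapped embryo H of experiment 2, at 1.75 and 1.57. Kif23, the motor subunit of the centralspindlin complex at the midzone, passed by probe A_51_P324287, which lay between -3.45 and -2.54 in experiment 1 and between -2.20 and -1.55 in experiment 2 (difference 1.12 ± 0.27, adjusted p = 0.0241 in limma). Its brighter probe, A_52_P27602, differed the same way by 0.87 ± 0.35 and did not pass (adjusted p = 0.176).

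Not all mitotic kinesins were higher in experiment 2. Of the 10 tested mitotic genes, by the brightest probe, 3 passed as higher (Kif18a, Kif20a and Kif22), 0 as lower, and 8 of 10 had a positive difference, as had 62.4% of all tested genes. Kif14, a cytokinesis motor, was the reverse: it lay between -2.67 and -0.98 in experiment 1 and between the floor and -2.84 in experiment 2. These ranges did not overlap either, but the difference of -1.51 ± 0.50 did not pass (adjusted p = 0.0943 in limma), and its second, dimmer probe gave 0.13 ± 0.37. By its brighter probe Kifc1 averaged -0.17 ± 0.54 (SD, 6 cells of 3 embryos) in experiment 1 and -0.55 ± 0.31 in experiment 2. This difference did not pass (adjusted p = 0.498 in limma). Its dimmer probe, A_52_P550734, differed the other way by 0.46 ± 0.40 and did not pass either (adjusted p = 0.566 in limma). Kif4, a chromokinesin, had a large but variable difference of 1.45 ± 0.56 (adjusted p = 0.158), and Kif11, which slides spindle poles apart, one of 0.48 ± 0.40 (adjusted p = 0.550).

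Transport kinesins showed a smaller median shift in these floored values. The median experiment difference was 0.31 log2 units over 10 tested transport genes, 0.79 over 10 mitotic genes, 0.39 over 6 others and 0.19 over 11724 tested genes of the array. Of the transport genes 7 had a positive and 3 a negative difference, a share near that of all genes, and the values ran from 0.87 ± 0.47 for Kif3c down to -0.73 ± 0.57 for Kifc2. Kif5c, a neuronal heavy chain of conventional kinesin, lay between 0.23 and 1.85 in experiment 1 and between 0.42 and 1.59 in experiment 2, so that its ranges overlapped almost whole. Its difference was -0.24 ± 0.38 (adjusted p = 0.745 in limma). Kif21b, a motor that limits microtubule growth, had the largest difference among the others, 1.67 ± 0.51, and did not pass (adjusted p = 0.0733). The floor shrinks differences of dim signals and bore more on the transport genes. Kif13a, Kif16b, Kif17, Kif1b, Kif5a and Kifc3 averaged between -3.92 and -3.47 over all cells, near the floor of -4.12. Among the tested mitotic genes only Kif11, at -3.66, lay in that range. How much of the smaller transport shift is due to the floor was not tested. The median of all genes is itself set by the scaling, and was 0.00 with the 75th percentile of all probes. The mitotic median exceeded it by 0.60 in the values given here and by 0.75 with that scaling, and the transport median by 0.11 and 0.02. With a lower common floor the transport excess was 0.44 and the mitotic excess 0.82, and without cell 1 of embryo D of experiment 2 they were 0.06 and 0.59.

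**Figure D2:**
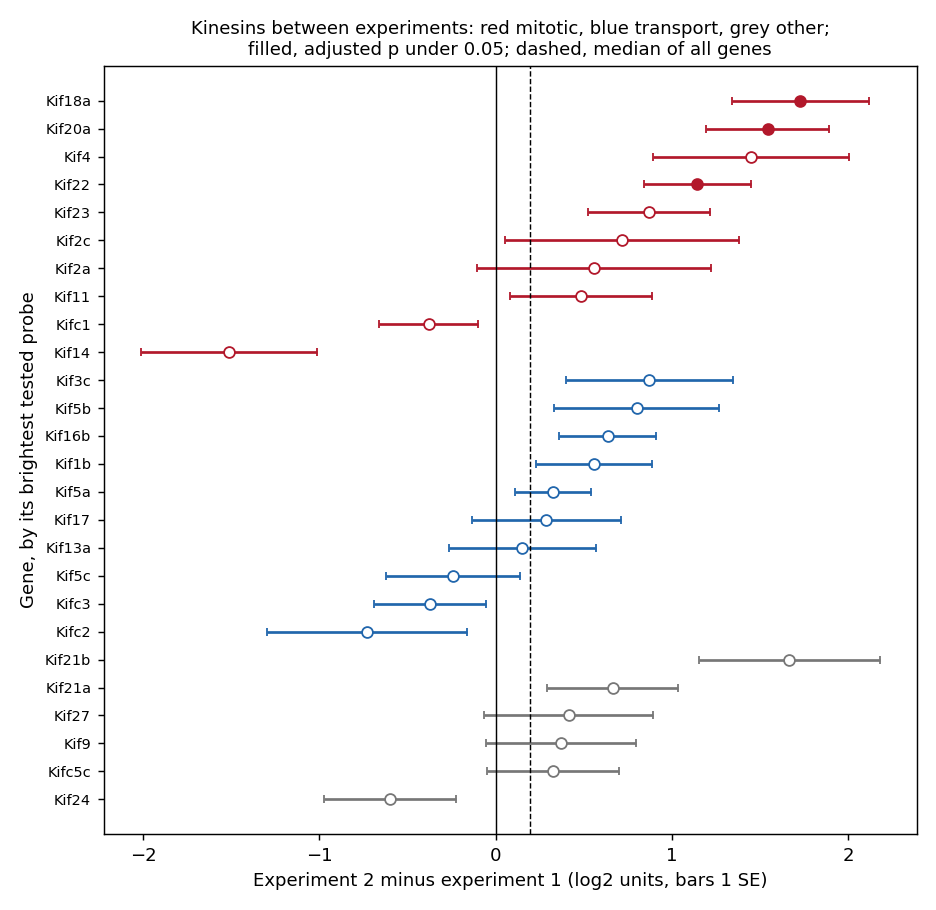
Difference between experiments (x axis, log2 units, experiment 2 minus experiment 1, bars 1 SE) for the 26 tested kinesin genes by their brightest probe. Filled points mark Kif18a, Kif20a and Kif22, which passed; the dashed line at 0.19 is the median of all tested genes, and Kif14 lies farthest to the left.

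Genes that work with these motors were listed as well. Of 21 tested kinesin partners and spindle genes, 7 were higher in experiment 2 and 0 lower, with a median difference of 0.82. Of all 11724 tested genes, 4.37% were higher and 4.94% lower. Nusap1, which binds microtubules near chromatin, rose by 2.34 ± 0.33 log2 units (adjusted p = 0.00146 in limma) and Prc1, which bundles the midzone microtubules that Kif4, Kif20a and Kif23 act on, by 2.00 ± 0.33 (adjusted p = 0.00354). Cenpe, itself a kinesin of the kinetochore that its symbol keeps out of the members, was 1.71 ± 0.22 higher (adjusted p = 0.000928). The kinases Aurka and Plk1, the chromosomal passenger subunit Cdca8 and the cytokinesis regulator Ect2 also passed, each by at least 1.26. The kinesin light chains Klc1, Klc3 and Klc4, which join conventional kinesin to cargo, differed by 0.19, -1.38 and -0.51, and none passed. Cytoplasmic dynein and dynactin, which carry cargo the opposite way, had no shared direction: of 19 tested genes 2 were higher (Dynll1 and Dynlt3), 3 lower (Dynlrb2, Dctn6 and Actr1a) and the median was 0.01.

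Kinesin promoters were searched for letters found in cell-cycle genes, because the mitotic members moved in part together. The cell-cycle homology region is TTTGAA, or TTCAAA on the other strand, and the second motif, bound by the factor NF-Y, is CCAAT, or ATTGG. The windows were RefSeq promoters of GRCm38.p6, 250 bases before to 50 after each start, and 27 of the 35 members had one. TTTGAA on either strand was found in 8 of 11 mitotic genes, 1 of 10 transport genes and 1 of 6 others, against 17.9% of 32851 windows of all genes. CCAAT on either strand was found in 7 of 11, 3 of 10 and 2 of 6, against 37.4% of all windows. The motifs do not overlap in the bases shown, and a match is a description of letters. The 3 called genes with a window are shown, each from 130 bases before to 30 after the start on the gene's strand, with both motifs in capitals. They are Kif22 at chr7:127042391-127042550 on the minus strand, Kif23 at chr9:61946770-61946929 on the minus strand and Kif18a at chr2:109280608-109280767 on the plus strand.
Kif22: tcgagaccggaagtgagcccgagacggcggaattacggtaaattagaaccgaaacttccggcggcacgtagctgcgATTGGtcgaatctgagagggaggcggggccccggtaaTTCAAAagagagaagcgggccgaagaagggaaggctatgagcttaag
Kif23: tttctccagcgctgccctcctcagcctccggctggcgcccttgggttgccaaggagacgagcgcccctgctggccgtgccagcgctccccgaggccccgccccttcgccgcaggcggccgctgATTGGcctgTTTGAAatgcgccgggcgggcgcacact
Kif18a: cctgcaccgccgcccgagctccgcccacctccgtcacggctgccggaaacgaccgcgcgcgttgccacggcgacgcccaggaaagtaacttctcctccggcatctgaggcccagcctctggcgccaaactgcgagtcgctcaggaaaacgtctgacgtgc
Kif22 and Kif23 thus hold both motifs within the bases shown and Kif18a neither. Kif14 holds TTTGAA at position -228 from its start, and CCAAT as well.

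Experiment, dye, scan and slide coincide here, and the experiments cannot be told apart from them: RNA was read in Cy5 in experiment 1 and in Cy3 in experiment 2. Beside the kinesins, 8 of 9 stroma and macrophage genes, 4 of 8 oviduct genes and 0 of 5 cumulus genes were lower in experiment 2, and 1 cumulus gene was higher, and their part in the kinesin differences was not tested. All 5 calls kept their direction in each of 23 alternatives, but the number called fell to 0 with the 75th percentile of all probes or a floor per array and to 1 with a lower common floor. It was 1 without cell 1 of embryo L and 3 without cell 1 of embryo I in experiment 1, and 3 without cell 2 of embryo G in experiment 2. With quantile normalization 8 probes were called, 7 higher and Kif14 lower, and with embryo means 3, of which Kif14 again was the 1 lower. The probe A_51_P133137 of Kif20a passed in 21 of 23 alternatives, Kif18a in 18, probe A_51_P133138 of Kif20a in 17, Kif23 in 16 and Kif22 in 7. Calls over the whole array were not counted in these alternatives, so a loss particular to kinesins cannot be told from a general one.

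Within experiments, embryos differed in a few kinesins. The moderated F test over embryos called 4 of 39 kinesin probes (10.3%), against 1.41% of all tested probes: Kifc2, Kif17, Kif22 and Kif24. At an unadjusted p under 0.05 there were 17 kinesin probes (43.6%), against 29.8% of all. By gene, 1 of 10 mitotic, 2 of 10 transport and 1 of 6 other kinesins were called.

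Kifc2, a minus-end directed motor known from axons and dendrites, was at -1.58 and -1.06 in the sister cells of embryo D, -1.74 and -1.89 in I and -2.50 and -2.68 in L of experiment 1. In experiment 2 it was at -1.47 and -0.92 in D, -2.66 and -2.53 in G, and at the floor of -4.12 in both cells of H. The embryos of an experiment did not overlap, and embryo H stood lowest (adjusted p = 0.0275 in limma). Sisters differed by up to 0.55, and the difference of 0 in H is set by the floor. Its signal was well above background in all 12 cells, and by the measured signals it was 10.5-fold lower in H than in D of experiment 2. In experiment 1 it was 2.41-fold lower in L than in D. Embryo D of each experiment was alone on its slide, so that the folds against it given here and for Kif17 and Kif22 also cross slides. In experiment 2 the cells of D had the highest shares of spots above background, 78.8% and 64.3%, and the part of slide and detection in these calls was not tested.

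Kif17, a motor of dendrites and cilia, was at -2.27 and -2.30 in embryo D, -3.82 and -3.32 in G and at the floor in H of experiment 2. In experiment 1 it was at -2.97 and -2.80 in L, at the floor in both cells of I, and at the floor and -3.53 in D. Embryo D of experiment 2 and embryo L of experiment 1 were high in both sisters. By the measured signals, before the floor, D was 10.2-fold above H and L was 3.54-fold above I. The F test over all embryos used the floored values (adjusted p = 0.0454 in limma). In them the sister differences of 0 in I and H are set by the floor. Its other tested probes, A_52_P600474 and A_52_P674259, did not pass (adjusted p = 0.0718 and 0.157).

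Kif22 fell into embryo levels as well. Its sister cells were at 1.72 and 1.71 in embryo D, 1.00 and 0.69 in I and 0.24 and 0.43 in L of experiment 1. In experiment 2 they were at 2.52 and 2.56 in D, 2.22 and 2.03 in G and 1.75 and 1.57 in H. No embryo overlapped another of its experiment (adjusted p = 0.0454 in limma), and the spread from highest to lowest embryo was 2.59-fold in experiment 1 and 1.85-fold in experiment 2.

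Kif24, a motor that keeps centrioles from forming cilia, was called by the F test, which covers all embryos and singles out none. Embryo L of experiment 1 stood highest, at -2.10 and -2.49. The other cells were at the floor, except cell 2 of embryo D of experiment 1 at -3.87 and cell 1 of embryo D of experiment 2 at -3.81. Embryo L was 4.44-fold above embryo I by the measured signals, before the floor. The F test over all embryos took the floored values and did not test that fold (adjusted p = 0.0424 in limma). In these values the sister differences of 0 in I of experiment 1 and in G and H of experiment 2 are set by the floor. The second tested probe of the gene did not pass (adjusted p = 0.948 in limma).

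**Figure D3:**
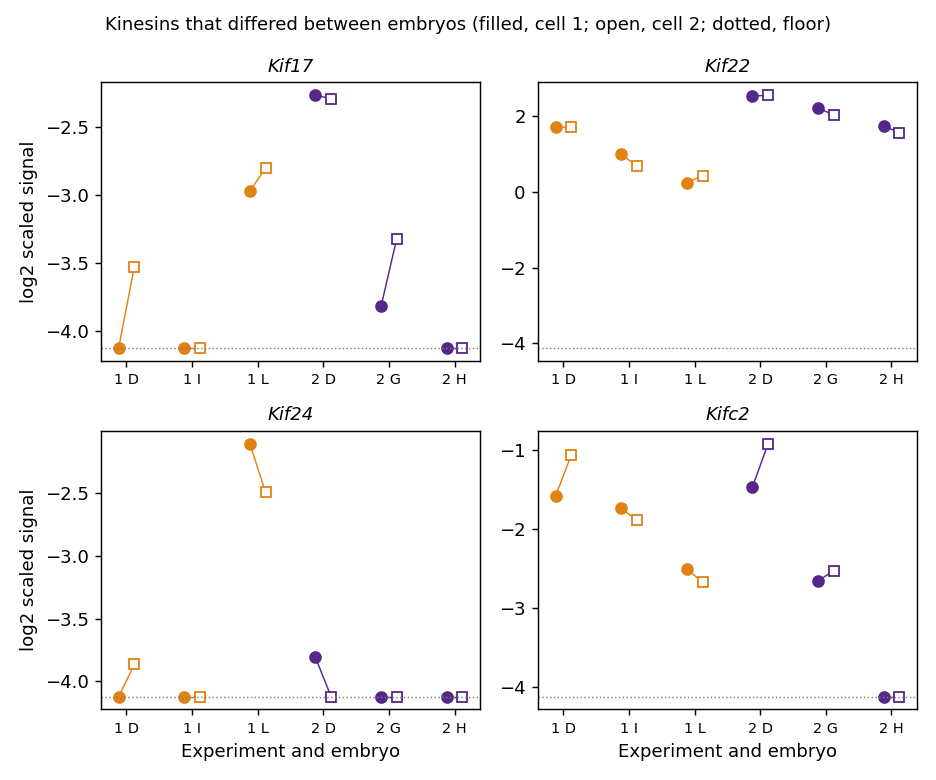
Log2 scaled signal (y axis) of the 4 kinesin probes that differed between embryos, by experiment and embryo (x axis), with sister cells joined, experiment 1 in orange and experiment 2 in purple. Embryos of an experiment do not overlap for Kif22 and Kifc2, and both cells of embryo H lie at the dotted floor for Kifc2 and Kif17.

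These 4 calls are not firm. No kinesin probe was called with the 75th percentile of all probes, with normexp or with a lower common floor. Of all tested probes, 2%, 0.239% and 0.012% were called in these settings. Within the slides that held cells of more than 1 embryo only Kif24 was called in a joint fit, with 0.281% of all probes. On either slide alone no kinesin was called, and 0% of all probes were. With a floor per array 11 kinesin probes were called (28.2%), where 26.1% of all probes were. Each fit without a cell leaves its embryo with 1 cell. The kinesin count fell without either cell of embryo H or cell 1 of embryo D in experiment 2, and the calls over the whole array fell as well. In experiment 1 both fell on leaving out either cell of embryo D or of embryo I. A fall particular to kinesins is thus not shown by the kinesin count. Leaving out cells of embryo L of experiment 1 raised it to 17 (cell 1) and 10 (cell 2), and the calls over the whole array to 23.2% and 11% of probes. Leaving out cell 1 of embryo G of experiment 2 raised it to 7, and the array's share to 6.84%. Kifc2 passed in 16 of 26 alternatives, Kif17 in 9 of 25, Kif22 in 8 of 26 and Kif24 in 8 of 25.

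Sister cells were closer to each other than cells of different embryos over the kinesins as a whole. The root-mean-square difference over 26 genes was 0.66 ± 0.18 log2 units (SD, n = 6 sister pairs) and 1.01 ± 0.21 between cells of different embryos of an experiment (24 pairs, which share cells). The gap was narrower in experiment 1, with 0.79 ± 0.17 (3 sister pairs) against 0.96 ± 0.16 (12 pairs), than in experiment 2, with 0.54 ± 0.09 against 1.05 ± 0.26, and this difference between experiments was not tested. The nearest cell of the experiment was the sister for 3 of 6 cells in experiment 1 and for 6 of 6 in experiment 2. Among mitotic kinesins the distances were 0.76 ± 0.29 and 1.03 ± 0.26, and among transport kinesins 0.54 ± 0.18 and 0.94 ± 0.28. Over all 11724 tested genes they were 0.82 ± 0.14 and 1.00 ± 0.15. The closest sisters over the kinesins were those of embryo H of experiment 2 (0.47) and the most distant those of embryo L of experiment 1 (0.95). Sisters shared a slide. Cells of different embryos on the same slide were 0.91 ± 0.17 apart (8 pairs), and sisters on those slides 0.66 ± 0.20 (4 pairs). No test was made of these distances, and a kinesin at the floor in both cells of a pair adds a difference of 0 to them.

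**Figure D4:**
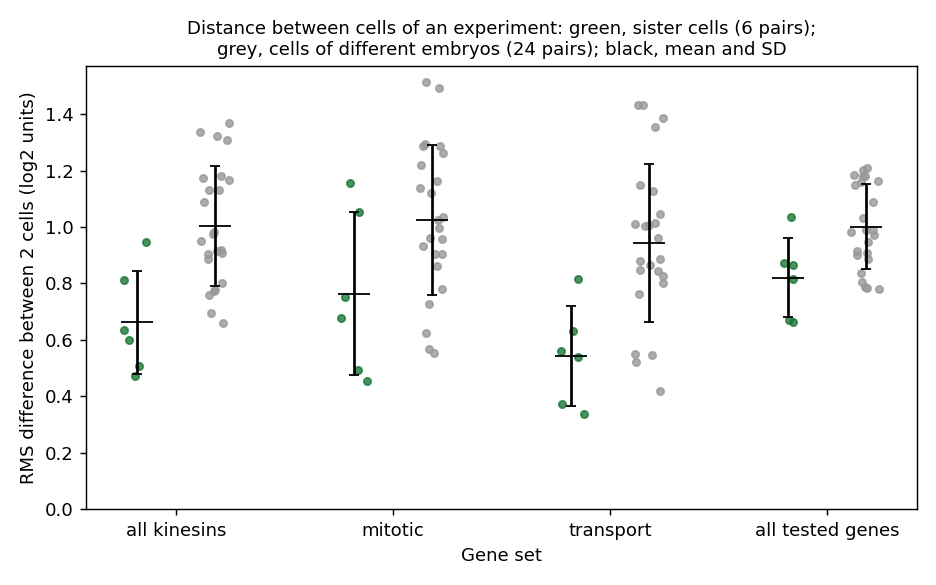
Root-mean-square log2 difference between 2 cells of an experiment (y axis, from 0) over 26 kinesin genes, 10 mitotic, 10 transport and 11724 tested genes. Green points are the 6 sister pairs and grey points the 24 pairs of different embryos, with mean and SD in black; sister pairs average 0.66 and other pairs 1.01 over the kinesins.

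How far sisters differed varied from kinesin to kinesin. By the brightest probe of each gene well above background in all cells, Kif22 had the smallest mean absolute sister difference, 0.15 log2 units. Kifc2 followed with 0.25 and Kifc1 with 0.30 (0.68 by its dimmer probe). The largest were those of Kif2a with 0.77, Kif5c with 0.74 and Kif5b with 0.73. The Kif2a value rested mainly on embryo D of experiment 1: Kif2a, a microtubule depolymerase of the spindle poles, was at -0.90 in its cell 1 and -3.65 in its cell 2. In the other embryos its cells lay at -4.12 and -4.12 in I, -1.97 and -2.47 in L, -2.76 and -3.04 in D, -2.23 and -2.13 in G, and -1.37 and -2.34 in H. The second tested probe of Kif2a, A_52_P582519, did not share this. In embryo D of experiment 1 it was not well above background in either cell, including the cell where the brighter probe was highest. In embryo I it was well above background at -3.14 and -2.57, where the brighter probe lay at the floor. The sister difference thus rests on 1 probe. By its brighter probe Kifc1 sat between -0.90 and 0.42 in experiment 1 and between -1.06 and -0.26 in experiment 2. Its sister cells were at most 0.67 apart, in embryo D of experiment 1. The dimmer probe, A_52_P550734, was also well above background in all cells and did not share this. By that probe the sisters were 1.38 apart in embryo D and 1.23 in embryo I of experiment 1. Kif3c lay between -3.86 and -1.97 in experiment 1 and between -3.35 and -1.23 in experiment 2, and its sisters differed by 0.52 on average.

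Whether a kinesin followed the cell number was asked last. No kinesin probe passed between cell 2 and cell 1 in limma, and 0% of all tested probes did. At an unadjusted p under 0.05 there were 2 kinesin probes (5.13%), against 4.42% of all, and both belong to Kif20a. By probe A_51_P133137 cell 2 was higher in 6 of 6 embryos, by 0.05, 0.52 and 0.50 log2 units in D, I and L of experiment 1 and by 0.55, 1.17 and 0.33 in D, G and H of experiment 2. The mean was 0.52 ± 0.15 (SE; unadjusted p = 0.0130 and adjusted p = 0.674 in limma). By probe A_51_P133138 cell 2 was higher in 5 of 6 embryos, with a mean of 0.41 ± 0.17 (adjusted p = 0.674 in limma).

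The cell difference was then compared between experiments. Again 0 kinesin probes and 0% of all tested probes passed in limma, and 3 kinesin probes (7.69%) had an unadjusted p under 0.05, against 5.27% of all: Kif14, Kif5b and Kif5c. For Kif14, cell 2 was higher than cell 1 in each embryo of experiment 1, by 0.85 in D, 1.63 in I and 1.17 in L. It was lower in each of experiment 2, by -1.11 in D, -1.28 in G and -0.47 in H. The difference between these differences was -2.17 ± 0.34 (SE; unadjusted p = 0.000916 and adjusted p = 0.913 in limma). The second tested probe of Kif14, A_51_P518790, did not share it: cell 2 was higher by 0.28 in D and 0.62 in G of experiment 2, with both cells of H at the floor, and its difference between the experiments was -0.29 ± 0.45. Kif5b went the opposite way, by -0.42, -1.19 and -0.90 in experiment 1 and 1.25, 0.57 and 0.04 in experiment 2 (1.46 ± 0.40, adjusted p = 0.913 in limma). Since the number of a cell has no stated meaning, the sign of these differences has none either.

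**Figure D5:**
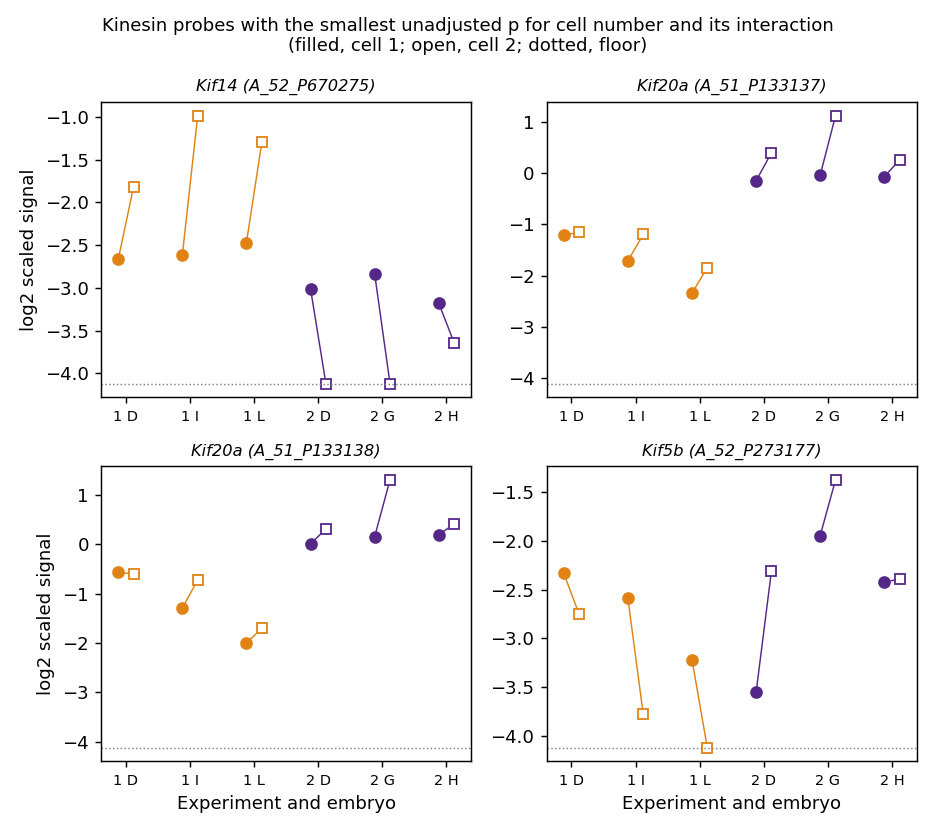
Log2 scaled signal (y axis) of Kif14, Kif5b and both probes of Kif20a in cell 1 (filled) and cell 2 (open) of each embryo (x axis), experiment 1 in orange and experiment 2 in purple. The joined cells of Kif14 rise from cell 1 to cell 2 in 3 of 3 embryos of experiment 1 and fall in 3 of 3 of experiment 2; no probe shown passed for cell number.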

How the data were processed

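The data are 12 arrays of an Agilent whole mouse genome design, 1 per blastomere. Per the file headers, the authors extracted spot intensity with Agilent Feature Extraction 9.1.3.1, and the processed signal is an intensity on a linear scale after that program's background subtraction. The labels name Cy3 throughout, but the signal of experiment 1 lay in Cy5, which was used. The deposited value table, also intensity, served as an alternative. Outlier spots were left out, spots of a probe averaged, and signals divided by the array's 75th percentile over those 5858 probes that all 12 arrays detected well above background. They were raised to a common floor of 0.0574 and logged to base 2. That floor was taken over from earlier work on these data, where its choice followed a look at the values.

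Testing covered the 16712 probes that 6 or more arrays detected well above background and used limma 3.58.1 (R 4.3.3): a moderated F test between embryos within experiments, experiment with embryo as random block (consensus correlation 0.35), cell number with embryo as fixed block, and their interaction. Benjamini-Hochberg adjustment ran over all tested probes at 0.05. Replicates are the 2 cells of an embryo and the 3 embryos of an experiment, and their number limits the precision. Of 41174 probes, 22951 were named through their accession, 11755 kept the file's name and 6468 had none. Where a gene had several probes, the brightest by mean log2 signal stood for it. Values were given for members called in any test, for the 2 smallest p of tests without calls, for the 4 mitotic and 4 transport genes above background on most arrays, for the 3 largest and 3 smallest sister differences, and for probes of a gene that disagreed. Remarks on Kif2a, Kif3c and Kif18a probes, Kif4, Kif11 and Kif21b were added after their values were seen. The members and lists were chosen with earlier results of these data known. Alternatives were other scalings, normexp (offset 50) with quantile normalization, floors and filters, other blocks, single experiments and slides, and each cell left out. The fits were tested on simulated data.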

Additional observations from a re-analysis of the deposited data

Results flagged for a closer look

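In experiment 2, Kif20a (A_51_P133138) had cell 2 of embryo G at 1.30, apart from the other 5 cells, the highest of which was at 0.41. Kif24 had cell 1 of embryo D of experiment 2 at -3.81, while the other 5 cells of that experiment lay at the floor. With 5 values tied at the floor any sixth value is marked, so this one is marked by construction. In all 33 groups of 6 values were examined for a lone extreme value, where chance alone marks about 1 in 20.

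The cell difference of Kif14 ran one way in all embryos of experiment 1 and the other way in all embryos of experiment 2 (-2.17 log2 units between the experiments), and so did that of Kif5b (1.46). Neither passed (adjusted p = 0.913 in limma for both).

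The Kif3c probe A_51_P449507 gave a median Cy3 signal of 11.5 on the arrays of experiment 1, in the channel that held no embryo RNA (range 9.11 to 13.2). Its part in the level read in the other channel was not tested.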

How the results depend on the processing

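Between embryos, limma called 4 kinesin probes. It called 0 with the 75th percentile of all probes, normexp with quantile normalization, a lower common floor, slide 2 alone, slide 4 alone (both chosen after seeing the data) or experiment 1 alone. Of all tested probes it called 2% with that percentile, 0.239% with normexp and 0.012% with the lower floor. With either slide alone or experiment 1 alone it called 0% of them, against 1.41% in the main fit. It called 1 within slides that hold more than 1 embryo or over probes above background on all 12 arrays, 2 with the deposited values, and 11 with a floor per array or no filter. The share of all tested probes was 0.281% within those slides, 0.371% with the deposited values and 26.1% with a floor per array. Leaving out each cell gave 0 to 17.

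Between experiments limma called 5. It called 0 with the 75th percentile of all probes or a floor per array, 1 with a lower common floor, 3 with slide as random block or embryo means, and 8 with quantile normalization. Leaving out each cell gave 1 to 5. The share of all tested probes called between experiments was not counted in these alternatives.

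With cell number as a replicate block the counts were 0 between embryos (0% of all tested probes) and 4 between experiments. The labels do not say what cells of the same number share. Over all tested probes, 3 of 15 correlations between the sister differences of 2 embryos were over 0.1 (range -0.08 to 0.26, median -0.007).

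Sister distance was 0.66, but 1.35 when the common floor was lowered and 1.09 with per-array floors. The distance between embryos was 1.01, and 1.99, 1.75 and, with quantile normalization, 0.79. Under each of these alternatives sisters stayed closer. The other alternatives moved these distances by less than 1 SD. The mitotic median ranged from 0.64 to 0.98 and the transport median from 0.01 to 0.49, each value within 1 SD (0.34 and 0.37, between embryos) of the one reported. Calls for cell number and its interaction were 0 throughout. Dim signals limit the other results. Where a kinesin at the floor was not well above background, its level in that cell has only an upper bound. Others at the floor, such as Kifc2 in embryo H of experiment 2, were well above background. Their measured signals were raised to the floor. The cause of these changes was not tested.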
